A study of Homo sapiens with 16 samples.

Results

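Wide fragmented Pol II regions are stretches where peaks of RNA polymerase II (Pol II) stood as a broken string in control cells. They were chosen by the peaks themselves: peaks of the 3 Pol II lists that overlapped by 1 bp or more were merged, and merged regions of at least 2 kb were kept when all 3 lists had a peak there and control had at least 4 pieces. A piece is a peak, or a set of peaks up to 37 bp apart, of the same list. The stretches between control pieces are called gaps here, and a gap says only that no peak was called. Of 104562 merged regions, 34044 had a peak in all 3 lists, 6468 of these were at least 2 kb wide, and 1940 met the whole rule. These 1940 regions spanned 10.5 Mb, with a median width of 4226 bp and a range of 2003 to 40419 bp.

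The study used chromatin immunoprecipitation and sequencing to map Pol II and the alpha form of DNA topoisomerase II (TOP2A) in hTERT RPE-1, a telomerase-immortalized wild-type line of human retinal pigment epithelium. All cells, controls included, were first kept for 48 h in 0.1% serum. The Pol II control list stood for 6 libraries, 3 given the vehicle DMSO for 30 min and 3 untreated. Merbarone at 200 uM was given for 30 min (3 libraries, 1 list) or 1 h (2 libraries, 1 list), and TOP2A was mapped in untreated cells (2 libraries, 1 list). No vehicle library lasted 1 h. The Pol II antibody is labelled as directed to the N-terminal domain of Rpb1, the largest Pol II subunit.

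Pol II starts at promoters, commonly pauses a short way downstream, and then moves along the gene. Its movement overwinds the DNA ahead and underwinds the DNA behind, and topoisomerases remove these supercoils. TOP2A does so by passing a DNA duplex through a transient break in another. Merbarone inhibits the catalytic cycle of topoisomerase II without holding the enzyme on cut DNA. Long stretches of Pol II along a gene can be listed by a peak caller as 1 wide peak or as a string of narrow ones, and the number of pieces and the gaps between them describe which of these was called.

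Each condition had 1 list, so no value has a spread between replicates and no test between conditions was possible. Intervals in parentheses are 95% Wilson intervals for shares and exact Poisson intervals for rates, and both cover counting only: neighbouring regions are not independent. Peaks carried no height, and read depth was not given, so a list made from more reads and a list of more bound Pol II cannot be told apart. Nor can more cells with Pol II at a place and more Pol II per cell. The lists also had unequal limits: the least space between neighbouring peaks was 1 bp in the control list and likewise in the 30 min list, against 38 bp in the 1 h list, which is why peaks up to 37 bp apart were joined in every list. Positions are in hg19, and no gene was assigned to any of them, since the gene table used here is of another build.

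Control peaks broke these regions into a median of 5 pieces (4 to 24). At 30 min the median was 3 (1 to 28) and at 1 h it was 2 (1 to 9). In total 10734 control pieces stood against 7042 at 30 min and 3837 at 1 h. The widest piece of a region was 1436 bp wide in control by the median. This median was 2270 bp after 30 min of merbarone and 3366 bp after 1 h. Because the rule asked for many control pieces, a lower number in the other lists is in part built in, and these values are a description.

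At 1 h, 1846 of the 1940 regions (95.2%, 94.1 to 96.0) had fewer pieces than in control, 59 had as many and 35 had more (1.8%, 1.30 to 2.5). Among all 4805 regions of at least 2 kb with 2 or more control pieces, 82.4% had fewer at 1 h and 5.33% had more. At 30 min, 1546 of the fragmented regions (79.7%, 77.8 to 81.4) had fewer pieces than control, against 60.5% of the 4805. Between the merbarone times, 1308 (67.4%, 65.3 to 69.5) had fewer pieces at 1 h than at 30 min and 302 had more, against a background of 56.9% with fewer. The number fell at each step in 932 regions (48.0%, 45.8 to 50.3).

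The regions differed in how far the strings closed. At 1 h, 904 (46.6%, 44.4 to 48.8) held 1 piece, 544 held 2, 296 held 3 and 196 still held 4 or more. At 30 min, 233 (12%, 10.6 to 13.5) held 1 piece and 808 held 4 or more. These shares lie below the 61.1% and 35.3% of all 6468 wide regions with 1 piece at 1 h and at 30 min, many of which had 1 piece in control already. A lone piece was not always a fused string. Of the 904 at 1 h, 881 (45.4% of all 1940, 43.2 to 47.6) filled every control gap, and 23 did not. At 30 min 202 (10.4%, 9.13 to 11.9) did, and 31 were lone peaks that left a gap unfilled. The name "fused at 1 h" thus held strictly for 881 of the 1940. In another 460 regions every control gap was filled at 1 h while breaks lay elsewhere.

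**Figure D1:**
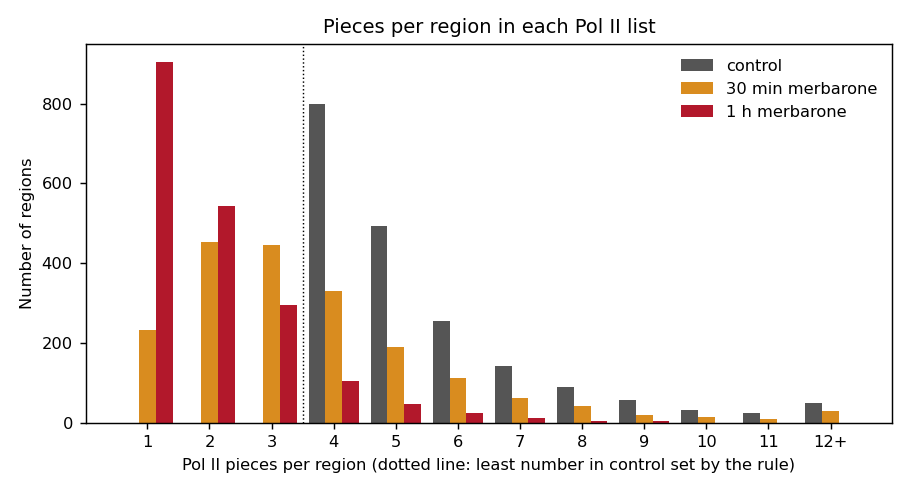
Number of fragmented regions (y axis) by the number of Pol II pieces per region (x axis) in control, at 30 min and at 1 h of merbarone, 1 list each, with no error bars because there are no replicates. Control starts at 4 by the rule. The tallest bar at 1 h is at 1 piece, with 904 regions, and at 30 min the bar at 1 piece holds 233.

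Regions with 1 piece at 1 h were not mainly those already closed at 30 min. In 792 regions there was 1 piece at 1 h but not at 30 min, in 112 at both times, in 121 at 30 min but not at 1 h, and in 915 at neither. Of the 233 with 1 piece at 30 min, 112 (48.1%, 41.7 to 54.5) had 1 at 1 h, close to the 46.6% of all fragmented regions.

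The 8 most fragmented regions show the course piece by piece. The region with most control pieces, chr1:3409918-3429363, spanned 19446 bp and held 24 pieces in control, 14 at 30 min and 1 at 1 h. Its cover, the share of its length under pieces, was 60.7% in control, 90.1% at 30 min and 100% at 1 h. Its widest piece grew from 1528 to 6624 and then 19446 bp, and the 1 h peak spanned all 23 control gaps. Next came chr7:47388840-47428494, 39655 bp wide, with 23, 13 and 2 pieces and cover of 91.1%, 95.5% and 99.7%. It stayed in a pair of peaks at 1 h, the larger 24487 bp. The 18574 bp of chr10:81019608-81038181 went from 23 pieces to 10 and then to 1.

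Some other members of these 8, but not all, opened at 30 min before they closed. The region chr8:124507842-124535714 had 21 pieces in control and 28 at 30 min, and its cover was 85.9% and 67.7%. At 1 h a peak of 27873 bp covered all of it. On chromosome 4, chr4:57920637-57941783 held 19 pieces in control, 27 at 30 min and 2 at 1 h, with cover of 89.5%, 69.4% and 99.7%. Close by, chr4:57883147-57911912 had no such rise in pieces and went from 20 to 18 and 3. The last 2 of the 8 were chr10:80986786-81002324 (18, 16 and 3 pieces) and chr7:2690009-2704867 (18, 15 and 1). None of these 8 regions held a TOP2A peak, and of all fragmented regions with 8 or more control pieces 7.91% held 1 or more.

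**Figure D2:**
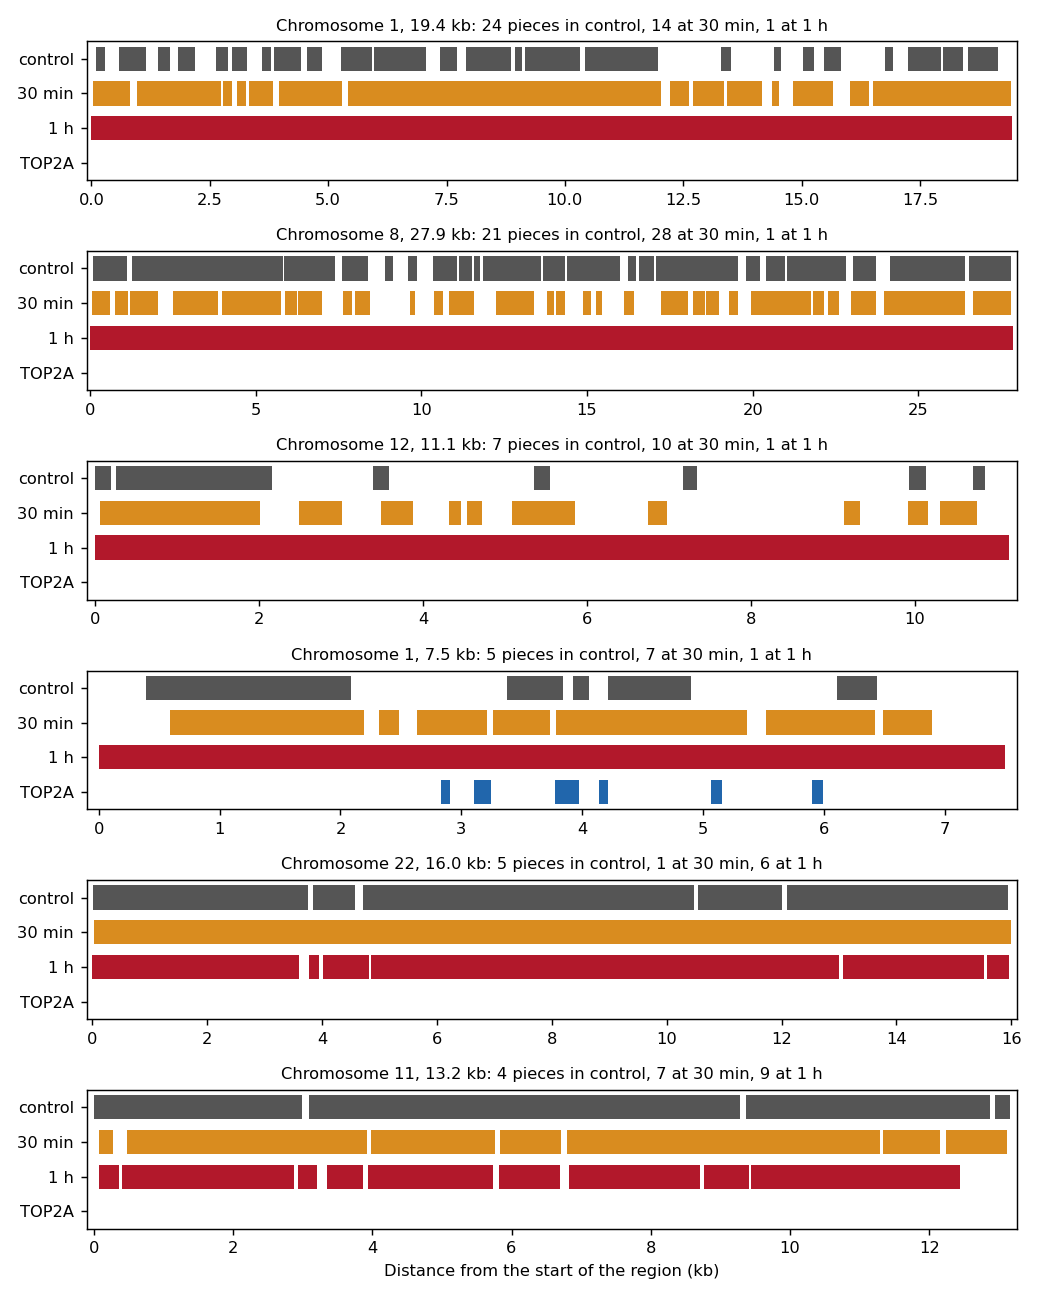
Maps of 6 fragmented regions, drawn to scale from the start of each region (x axis, kb), with Pol II pieces of control, 30 min and 1 h and TOP2A peaks of untreated cells as blocks. In the 4 upper maps the 1 h row is 1 block, in the chromosome 22 map the 30 min row is 1 block and the 1 h row has 6, and in the chromosome 11 map the pieces go from 4 to 7 to 9.

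Gaps were counted between the first and the last control piece of each region. There were 8794 of them, with a median width of 126 bp (38 to 3673), and they made up 16% of the length of the regions. At 1 h 7953 (90.4%, 89.8 to 91.0) lay wholly under a peak and 127 were untouched. At 30 min 5273 (60.0%, 58.9 to 61.0) were filled and 943 were untouched. In all 4805 regions of at least 2 kb with 2 or more control pieces, which include the fragmented ones, the shares were 89.6% and 59.9%, so the members' shares are near the background. Some filling is fixed by the rule, since a gap lies inside a merged region only if merbarone peaks of 1 or both times cover it. What the rule did not fix is which time covered it. Both times filled 4611 gaps, 1 h alone 3342, 30 min alone 662, and 179 were covered by parts of both. Of the gaps filled at 30 min, 87.4% were filled at 1 h too.

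Within the fragmented regions the times differed most in wide gaps. The merging rule bears on this, since a wide control gap lies inside a region only if merbarone peaks cover it. Clusters built without that rule are given below, and in them the difference in percentage points did not grow steadily with gap width. Gaps under 100 bp were filled in 75.9% of cases at 30 min and 93.6% at 1 h. Those of 100 to under 200 bp were filled in 61.0% and 91.3%, and those of 200 to under 500 bp in 44.5% and 86.5%. Among the 523 gaps of 500 bp or more, 19.3% (16.2 to 22.9) were filled at 30 min and 82.6% (79.1 to 85.6) at 1 h. At 30 min 58.1% of the bases of these wide gaps were covered, and 36 of the 523 were untouched. None of these 523 was untouched at 1 h.

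The place of a gap in its region mattered little. With each region cut into 3 equal parts by coordinate, the share filled at 1 h was 90.6% at the low end, 90.8% in the middle and 89.9% at the high end, and at 30 min 59.4%, 62.1% and 58.2%. Gaps next to the widest control piece were filled in 63.7% of cases (61.9 to 65.4) at 30 min and others in 58.0% (56.7 to 59.3), and their median widths were 116 and 131 bp. At 1 h the shares were 90.2% and 90.6%. Gaps that lay 5 kb or more from the widest control piece were filled at 1 h in 96.2% of cases (93.8 to 97.7), and those up to 1 kb away but not next to it in 88.7% (87.4 to 89.8). At 30 min these shares were 55.6% and 58.4%. Gaps this far away exist only in wide regions, where filling at 1 h was also more frequent, at 95.2% in regions of 10 kb or more and 88.1% in those of 2 to 5 kb.

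Largest among the closures by a lone 1 h peak was that in chr12:69201146-69212286. Control peaks covered 26.8% of its 11141 bp in 7 pieces, and its widest gap was 2591 bp. At 30 min there were 10 pieces over 45.8%, and 1 of the 6 control gaps was filled. At 1 h 1 peak spanned the region and filled 7858 bp of gaps. The peak on chr1:3409918-3429363 filled 7245 bp, and that on chr7:1569973-1587844 filled 5347 bp in 16 gaps. In chr20:48599045-48607137 control had 5 pieces over 25.2% and a gap of 3355 bp, and all 4 gaps were filled at 1 h. The fifth was chr7:2690009-2704867, where the peak filled 5106 bp in 17 gaps.

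The later lists had gaps of their own. At 30 min the regions held 5102 gaps, and 1805 of them (35.4%) lay wholly inside a control piece. At 1 h they held 1897, of which 1054 (55.6%) lay inside a control piece. The median gap at 1 h was 83 bp wide, compared with 129 bp for the 30 min list and 126 bp for control, and 1 h gaps took up 2.09% of the length of the regions. Breaks at 1 h were fewer, and most lay wholly inside control pieces. The rule favours fewer breaks, since it asked for many control pieces. It also favours their place, since a base of a merged region bare at 1 h must lie under a control or 30 min peak.

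A choice on many control pieces by itself favours fewer pieces elsewhere, so the rule was turned around. With 4 or more pieces asked for at 1 h in place of control, 301 regions of at least 2 kb were found, with a median of 4 pieces at 1 h and 4 in control. Of these, 46.5% had fewer pieces in control than at 1 h and 33.9% had more, and 22 had 1 control piece. With 4 or more pieces asked for at 30 min, 1214 regions were found, with medians of 5 pieces at 30 min, 4 in control and 2 at 1 h. In them control had fewer pieces than 30 min in 48.6%, and 1 h had fewer in 94.1%. In the 301 regions chosen on 1 h, 72.8% had fewer pieces at 30 min than at 1 h. For each pair of lists, the one that more often had fewer pieces thus depended on the list used to choose, and the piece counts do not give a direction that is independent of the rule. The shares were unequal: 95.2% had fewer at 1 h when chosen on control, and 46.5% had fewer in control when chosen on 1 h.

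Clusters were also built from the pieces of 1 list alone, up to 500 bp apart, so that nothing was asked of the other lists (at least 4 pieces and 2 kb). This way of building was set after the first values were seen. In 3526 such control clusters, 39.5% (38.9 to 40.2) of 20720 gaps were filled at 30 min and 53.5% (52.8 to 54.2) at 1 h. In the other direction, 22.0% (21.5 to 22.6) of 19719 gaps in 3742 clusters of the 30 min list were filled in control. Of 21848 gaps in 4128 clusters of the 1 h list, 15% (14.5 to 15.5) were filled in control. The order held for gaps under 100 bp, at 75.4% for control gaps at 1 h and 29.3% for 1 h gaps in control, and for those of 200 to under 500 bp, at 32.8% and 3.72%. Control gaps were filled less often at both times as they got wider. At 30 min the shares were 63.4%, 41.7% and 19.2% for gaps under 100, 100 to under 200 and 200 to under 500 bp. At 1 h they were 75.4%, 58.0% and 32.8%. The difference between the times, in percentage points, was thus largest for gaps of 100 to under 200 bp. Filling at 1 h was less frequent here than the 90.4% within the fragmented regions, which the merging rule raised.

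**Figure D3:**
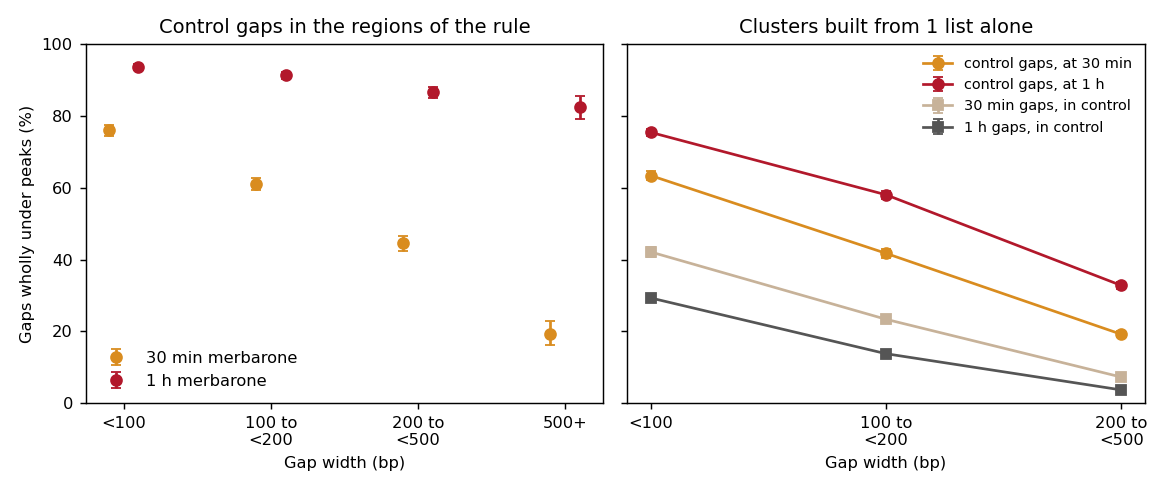
Share of gaps lying wholly under peaks (y axis, %) by gap width (x axis, bp); bars are 95% Wilson intervals for counting. On the left, control gaps of the fragmented regions fall from 75.9% to 19.3% filled at 30 min and from 93.6% to 82.6% at 1 h as they get wider. On the right, for clusters built from 1 list alone, control gaps are filled at 1 h more often than 1 h gaps are filled in control in each width class drawn.

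In these regions, chosen on control pieces, cover rose with the closing of gaps. Summed over the 1940 regions, Pol II pieces covered 8.18 Mb in control (77.9% of the length), 8.91 Mb at 30 min (84.8%) and 10.1 Mb at 1 h (96.0%). The ratios to control were 1.09 and 1.23, and in the 4528 wide regions with 1 to 3 control pieces they were 1.04 and 1.14. Of the bases covered at 1 h and not in control, 1.62 Mb lay in control gaps and 0.563 Mb outside the outermost control pieces, so that 74.2% was inside the string. In the wide regions with 1 to 3 control pieces 34.5% was inside, but the rule fixes much of this contrast, since 1663 of those 4528 had 1 control piece and so no gap. Of the bases under control peaks, 90.6% in the fragmented regions were under peaks at 30 min and 96.6% at 1 h, against 93.3% and 96.1% in the other wide regions.

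For a single region the median cover was 76.4% in control, 86.9% at 30 min and 97.3% at 1 h. At 1 h 1399 regions (72.1%) were covered more by 10 percentage points or more, against 54.7% of all 6468 wide regions, and 26 were covered less by as much. At 30 min 834 (43.0%) were covered more by 10 points or more, against 32.4%, and 177 were covered less. Regions with less room to rise differ from those with more, so these were split by control cover. The 202 regions under 50% had medians of 41.7% in control, 70.7% at 30 min and 98.2% at 1 h, and 52.0% of them held 1 piece at 1 h. The 274 regions with 90% or more had medians of 93.1%, 94.8% and 98.1%, and 44.9% held 1 piece. Cover after merbarone is partly fixed in the thin strings, because what control leaves bare inside a merged region must lie under a 30 min or 1 h peak.

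**Figure D4:**
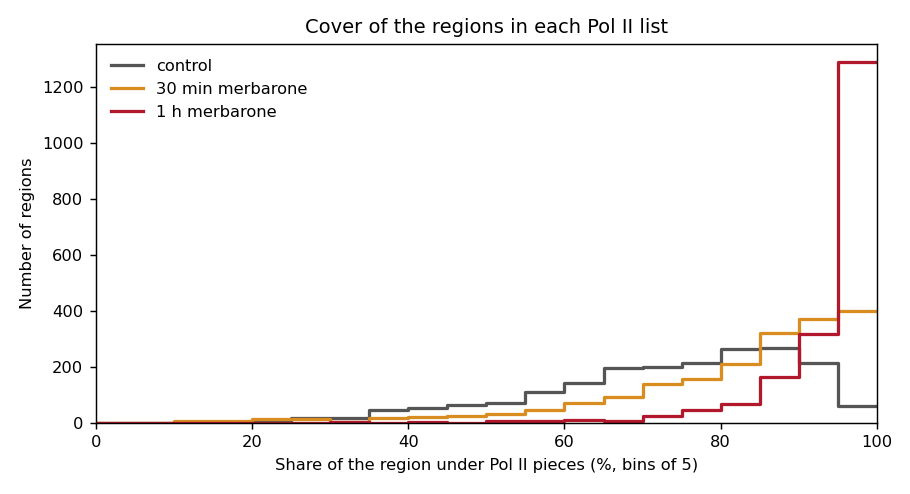
Number of fragmented regions (y axis) by the share of their length under Pol II pieces (x axis, bins of 5 percentage points) in each list. The medians are 76.4% in control, 86.9% at 30 min and 97.3% at 1 h, and the 1 h line peaks in the last bin.

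The largest rises came at different times. The next 4 regions, like the dips and falls after them, were named after their values were seen. On chr3:124728430-124734491, control peaks covered 21.6% in 7 pieces and 30 min peaks 20.5% in 6, while 1 h peaks covered 99.2%. The same late course was seen on chr12:69219331-69226681, at 22.8%, 13.2% and 100%, which lies just beyond the chromosome 12 region named above. Early rises included chr12:57889728-57892534, at 24.4% in control, 90.7% at 30 min and 99.1% at 1 h. Likewise, chr2:220348429-220350746 (2318 bp) went from 4 pieces over 31.8% to 1 piece over 93.6% at 30 min.

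Regions with a dip in cover at 30 min stood against control at 1 h much as all fragmented regions did. The 177 regions covered less by 10 points or more at 30 min had median cover of 76.8% in control, 59.9% at 30 min and 98.4% at 1 h, and 165 of them (93.2%) stood at or above control at 1 h. Of all 1940 regions 94.1% were above control at 1 h. The largest dip was on chr10:80856272-80864714, from 86.8% in 10 pieces to 22.5% in 7, with 99.6% in 2 pieces at 1 h. In chr5:139056146-139062571 control had 12 pieces over 58.2%, 30 min a lone peak of 241 bp and 1 h a peak over all 6426 bp. Of 184 regions with more pieces at 30 min than in control, 171 (92.9%, 88.3 to 95.8) had fewer than control at 1 h, near the 95.2% of all fragmented regions.

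Few regions had more pieces at 1 h than in control, which the choice on many control pieces in part builds in. The largest excess of 1 h pieces over control was on chr11:35244277-35257431, with 4 pieces in control, 7 at 30 min and 9 at 1 h, and cover of 98%, 94.8% and 89.2%. On chr16:2255031-2265649 the pieces numbered 5, 5 and 9, and on chr2:242435517-242440176 they numbered 4, 2 and 8. A pair on chromosome 7 ended with 8 pieces each, chr7:47595118-47600991 from 5 and 5, and chr7:47499858-47505346 from 5 and then 1 piece. Cover fell most on chr12:6953989-6957361, from 90.9% in control and 96.9% at 30 min to 33.0% at 1 h, and on chr3:99430970-99434738, from 86.0% and 92.8% to 35.5%.

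Some regions were closed at 30 min and broken again at 1 h. The widest was chr22:36687762-36703756, 15995 bp, with 5 pieces in control, 1 at 30 min and 6 at 1 h. Its cover changed little, at 97.2%, 99.8% and 97.1%, so the breaks were narrow. The next 4 by width each held 2 pieces at 1 h: chr14:104162461-104176879 and chr3:42700732-42712117 from 5 in control, and chr13:114516221-114527147 and chr22:50960929-50971225 from 4.

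The share of wide regions with 1 piece at 1 h fell with the number of control pieces up to 4. It was 78.3% with 1 control piece and 64.6% with 2. Just outside the rule, the 1231 wide regions with 3 control pieces had medians of 2 pieces at 30 min and 1 at 1 h, and 55.9% held 1 piece at 1 h. The 798 regions with 4, just inside, had medians of 3 and 2, and 48.4% held 1 piece. With 5 control pieces the share was 46.3%, with 6 to 7 it was 44.3%, and with 8 or more 45.1%, so that from 4 pieces on it hardly moved. At 30 min the share fell from 16.9% with 4 pieces to 2.37% with 8 or more. By width, the member nearest the limit was chr1:17318232-17320234 (2003 bp, with 4, 2 and 1 pieces), and the widest region just too narrow was chr2:216231963-216233961 (1999 bp, with 4, 1 and 1), 1 of 232 regions under 2 kb with 4 or more control pieces.

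In the control strings the first and last pieces had a median width of 360 bp and the inner ones 374 bp. The widest piece was the first or last in 857 regions (44.2%, 42.0 to 46.4), where 39.9% would be at an end if each piece of a string were equally often the widest. It held a median of 44.2% of the control cover of its region.

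For 618 fragmented regions (31.9%, 29.8 to 34.0) another lay within 5 kb. Of the 4528 wide regions with 1 to 3 control pieces, 759 (16.8%, 15.7 to 17.9) had a fragmented region that near, and the difference was not tested. In all, 291 runs of 2 or more within 10 kb of each other held 757 regions (39.0%). Those in a run are separate because no unbroken chain of overlapping peaks joined them. The longest runs, picked after their values were seen, held 10 regions each. On chr10:80967922-81080720, 116 control pieces became 54 at 30 min and 21 at 1 h, with cover of 83.1%, 92.6% and 98.3%. On chr3:196960624-197026757, 61 pieces became 46 and then 12, but cover dipped from 71.8% to 63.7% at 30 min before reaching 99.4%, and 8 of the 10 regions held 1 piece at 1 h. A second run on chromosome 10, chr10:80826457-80894495, held 8 regions and dipped further, from 78.2% to 50.9% and then 99.1%. Cover in the 2 chromosome 10 runs thus moved in opposite directions at 30 min.

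By chromosome, the fragmented regions made up 30.0% of all wide regions. The share was highest on chromosome 10, at 125 of 326 (38.3%, 33.2 to 43.7), and lowest on chromosome 21, at 9 of 53 (17.0%, 9.20 to 29.2). The share with 1 piece at 1 h ran from 38.1% on chromosome 22 to 66.7% on chromosome 21, where there were 9 regions.

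TOP2A did not enter the rule. In untreated cells 110 of the 1940 regions (5.67%, 4.73 to 6.79) held 1 or more TOP2A peaks. Of all 6468 wide regions 8.43% did, and of the 4528 with 1 to 3 control pieces 435 did (9.61%, 8.78 to 10.5). Of the 1940, 33 (1.70%, 1.21 to 2.38) held 2 or more, near the 1.93% of all wide regions. Per Mb of region the rates were 17.0 TOP2A peaks (14.6 to 19.7) in the fragmented regions and 38.5 (35.4 to 41.7) in those with 1 to 3 pieces. Fragmented regions were the wider group, and the rate was lower in each width class: 10.1 against 38.5 per Mb at 2 to 5 kb, 21.6 against 34.0 at 5 to 10 kb, and 20.9 against 50.5 at 10 kb or more. The intervals did not overlap, and the difference itself was not tested because regions are not replicates.

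Rates were lower in regions with more control pieces. The rate was 55.8 per Mb (49.5 to 62.7) in wide regions with 1 control piece, 31.9 with 2, 27.3 with 3, 20.7 (16 to 26.2) with 4, 21.1 with 5, 13.8 with 6 to 7 and 11.4 (7.57 to 16.5) with 8 or more. From 2 pieces on, each class overlapped the next in its interval, and only the intervals for 1 and 2 pieces stood apart between neighbours. The steps were not tested.

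Inside the fragmented regions TOP2A lay on the control pieces. Of 179 TOP2A peaks, 170 had their midpoint in a control piece, 8 in a control gap and 1 outside the outermost pieces, or 20.8 (17.8 to 24.1), 4.75 (2.05 to 9.36) and 1.58 (0.0400 to 8.80) per Mb of each. The region chr1:2984506-2992002 held 6 of the 8 in gaps, and without it gaps held 2, or 1.19 per Mb (0.144 to 4.30). The widest control piece of each region held 118 TOP2A midpoints, 30.1 per Mb (25 to 36.1), and the other pieces 52, or 12.2 (9.10 to 16).

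Piece width was compared because TOP2A was more frequent in wide pieces. Control pieces of 2 to 5 kb held 39.7 TOP2A midpoints per Mb (31.8 to 49.0) in the fragmented regions and 46.7 (41.1 to 52.9) in those with 1 to 3 pieces, and the intervals overlap. For pieces of 1 to 2 kb the rates were 15 (9.91 to 21.9) and 53.6 (46.0 to 62.1), and for pieces of 500 bp to 1 kb 9.91 (5.42 to 16.6) and 28.5 (18.4 to 42.0). Under 500 bp they were 5.33 and 13.1, and at 5 kb or more 30.1 (20.7 to 42.2) and 46.2 (37.9 to 55.7), with intervals that overlap in both classes. The rate was thus lower in fragmented regions in each width class, and the intervals stood apart for pieces of 500 bp to 2 kb. Overlap in the other classes does not show that the rates there were alike, and no difference was tested.

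**Figure D5:**
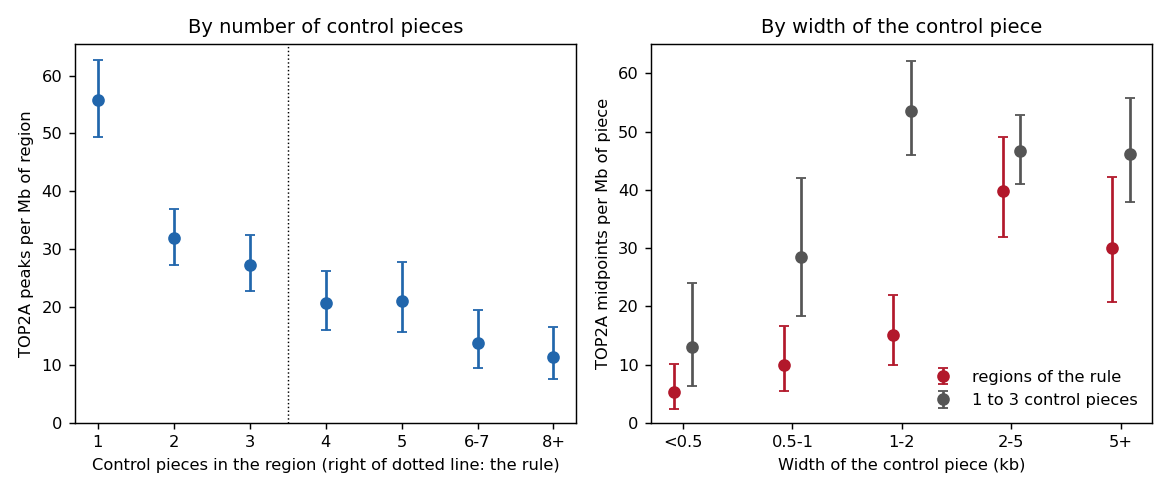
TOP2A peaks per Mb with exact 95% Poisson intervals. On the left, rates per Mb of region fall from 55.8 in wide regions with 1 control piece to 11.4 in those with 8 or more; on the right, rates per Mb of control piece by piece width (kb) are shown for the fragmented regions and for wide regions with 1 to 3 control pieces, and stand furthest apart at 1 to 2 kb (15 and 53.6).

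Among the fragmented regions, those with TOP2A more often ended as 1 piece. Of the 110 with TOP2A 63.6% held 1 piece at 1 h, and of the 1830 without 45.6% did. At 30 min the order was the other way, at 5.45% and 12.4%. Regions with TOP2A were wider, with medians of 7271 and 4139 bp, so width was held within classes. TOP2A was found in 4.01% (2.66 to 5.99) of regions of 2 to 5 kb with 1 piece at 1 h and in 1.56% (0.852 to 2.86) of those with more pieces. At 5 to 10 kb the shares were 11.8% (8.43 to 16.2) and 5.65% (3.56 to 8.86), and at 10 kb or more 18.5% (11.9 to 27.6) and 13.5% (8.09 to 21.8). The intervals of these shares overlap in each class, and the difference was not tested. Counted as TOP2A peaks per Mb, the rate at 2 to 5 kb was 16.6 (11.2 to 23.7) with 1 piece at 1 h and 4.63 (2.22 to 8.51) with more. At 5 to 10 kb it was 30.35 (22.8 to 39.6) and 14.0 (9.39 to 20.1), and the intervals in both classes did not overlap. At 10 kb or more the order was the reverse, at 16.6 (10.4 to 25.2) and 25 (17.3 to 34.9). These rates were not tested either.

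TOP2A was mapped in untreated cells alone. Of its 179 midpoints, 176 lay where a 30 min Pol II piece was called and 178 where a 1 h piece was, and these pieces covered 84.8% and 96.0% of the length. The region with most TOP2A peaks, chr2:45155096-45184065, held 12, all in control pieces, and it went from 4 pieces to 8 and back to 4 with cover of 98.6%, 96.5% and 98.7%. In chr10:77155595-77163650, 6 control pieces became 5 and then 1. All 7 of its TOP2A peaks lay in control pieces, most of them in the widest (2090 bp), and some pieces held none. The chromosome 1 region with 6 TOP2A peaks in its gaps had cover of 44.4% in control, 76.0% at 30 min and 100% at 1 h, and its pieces went from 5 to 7 to 1. Those with 5 TOP2A peaks were chr22:46464582-46491300 (5, 4 and 4 pieces) and chr10:80826457-80844615 (11, 18 and 2). The widest region with no TOP2A peak was chr7:47388840-47428494, described above.

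The number of regions that meet the rule depends on how peaks are joined. With no joining 2862 met it, with peaks up to 100 bp apart joined 989 did, and with 200 bp 303 did. Of those 303, 90.1% held 1 piece at 1 h and 33.0% at 30 min. Joining was done in every list alike, so 1 h and 30 min breaks up to 200 bp were closed as well. With peaks up to 37 bp apart joined, the median 1 h gap was 83 bp wide and the median 30 min gap 129 bp.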

How the data were processed

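Per the labels' protocols, cells were cross-linked for 10 min in 1% formaldehyde, and libraries were made by ChIPmentation, in which a transposase adds adapters to the precipitated chromatin. Per the submitters' processing notes, the authors used Bowtie 1.2.0, MACS2 and deepTools 2.4.1 on hg19. The sources used here do not give the threshold and background library MACS2 was run with, nor how it took several libraries together. Deposited files hold peak starts and ends in bp with no score, 1 list for each of 4 conditions. The 3 IgG libraries were not analysed here.

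The regions and lists of comparisons were chosen with earlier results of these data known. Starts were read as counted from 0 and are printed counted from 1. Peaks that only touch were not merged. Pieces were joined within a region. A gap counted as filled when peaks of a list covered all of it, TOP2A was placed by its midpoint within regions, and a region held TOP2A when they overlapped by 1 bp or more.

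Regions named are the 8 with most control pieces, the 5 with most gap bases filled by 1 peak at 1 h, the 5 with most 1 h pieces over control, the 5 widest with 1 piece at 30 min and more at 1 h, the 5 with most TOP2A peaks, the widest without TOP2A, and those nearest 2 kb. Others are said to be chosen after their values were seen.

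No sequence was printed because no hg19 genome was used here. Depth is unknown, so no precision beyond counting can be given. The interval functions were tested on simulated data and against bedtools 2.31.1, and all 6 checks gave the known values. The scripts ran under Python 3.11.15 and used scipy 1.17.1, pandas 2.3.3, numpy 2.4.6 and matplotlib 3.10.9.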

Additional observations from a re-analysis of the deposited data

How the results depend on the processing

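Each condition has 1 list with no height, and depth is unknown, so no library could be left out and weaker signal cannot be told from fewer reads. No paired analysis was possible because each condition has 1 pooled list. Values are given in the order they have in the report: 1940 regions, 12% with 1 piece at 30 min and 46.6% at 1 h, 95.2% with fewer pieces at 1 h than in control, 60.0% and 90.4% of control gaps filled at 30 min and 1 h, cover of 77.9%, 84.8% and 96.0%, and TOP2A in 5.67%. Shares that stayed within the interval of the reported value are left out, and why the others moved was not tested. In each setting listed here that gives it, cover was higher at 30 min than in control and higher again at 1 h. More gaps were filled at 1 h than at 30 min in each setting that gives both. The settings with cover all chose regions on control pieces. In the 301 regions chosen on 1 h pieces, median cover was 84.5% in control, 92.1% at 30 min and 88.6% at 1 h. In the 1214 chosen on 30 min pieces it was 76.5%, 80.3% and 97.9%.

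With no joining of peaks, 2862 regions were found, 7.93% had 1 piece at 30 min, 97.6% had fewer at 1 h, 62.8% and 91.4% of gaps were filled, and cover was 79.6%, 85.5% and 95.8%. With peaks up to 100 bp apart joined, 989 regions had 1 piece in 18.9% at 30 min and 71.4% at 1 h, 98% had fewer, gaps were filled in 58.9% and 94.5%, and cover was 75.6%, 83.9% and 97.1%. With 200 bp, 303 regions had 1 piece in 33.0% and 90.1%, 100% had fewer, gaps were filled in 61.3% and 97.2%, and cover was 72.1%, 82.5% and 98.3%. Without peaks narrower than the smallest 1 h peak, 1627 regions were found, 41.4% had 1 piece at 1 h, 92.4% had fewer, gaps were filled in 61.2% and 88.8%, and cover was 78.2%, 85.4% and 95.7%. With peaks of 300 bp or more alone, 696 regions were found, 93.4% had fewer, 89.7% of gaps were filled at 1 h, cover was 80.2%, 85.4% and 96.5%, and 7.90% held TOP2A.

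At 5 kb or more, 752 regions had 1 piece in 8.24% at 30 min, 92.9% of gaps filled at 1 h, cover of 83.3%, 87.7% and 97.6%, and TOP2A in 10.4%. With 6 or more control pieces, 650 regions had 1 piece in 5.08% at 30 min, fewer pieces in 98%, 92.7% of gaps filled at 1 h, and cover of 77.6%, 84.3% and 97.2%. When peaks had to overlap by 100 bp, 1604 regions were found, 15.8% and 65.5% had 1 piece, 97.6% had fewer, gaps were filled in 61.4% and 94.5%, and cover was 78.6%, 85.3% and 97.3%. Counting a gap as filled at 50% of its bases gave 75.4% and 96.4%. Clusters from the control list alone, added after the data were seen, gave 39.5% and 53.5%.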
